A study of Nothobranchius furzeri with 8 samples.

Results

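Among the nuclear genes for subunits of the mitochondrial respiratory chain, 9 were followed in the killifish brain, 5 of complex I (ndufs3, ndufv3, ndufa6, ndufb4 and ndufb9) and 4 of complex IV (ndufa4, cox4i1, cox6b1 and cox6b2). They were chosen among the 23546 genes of the tables because they were higher in the brain of sponge-29 fish than of wild-type fish, so the difference between these groups is given for them as a description, with no p. Where calls of a test across all genes are counted, they stand beside the share of all genes called and support nothing. Other subunits of both complexes may be among the genes that carry no symbol here and were not analysed. RNA-seq had been run on the brain of 4 wild-type fish and 4 sponge-29 fish of *Nothobranchius furzeri*, the turquoise killifish, all 12 weeks old. The controls are of the line that the labels give as MZM-04/10p, and the methods state the strain MZM-04/10 for all killifish. The sponge-29 fish are F1 animals of a transgenic line in which the zebrafish kif5aa promoter, active in neurons, drives an eGFP transcript with repeated miR-29 binding sites. This transcript is meant to draw miR-29 away from its natural targets. The vector also holds eGFP under a heart promoter, several founders were used to set up the line, and the labels tie no fish to a founder, a sex, a tank or a sequencing run. The sponge transcript and the microRNA were not analysed here, and group membership was taken from the labels.

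The respiratory chain of the inner mitochondrial membrane passes electrons from nutrients to oxygen and pumps protons, and ATP synthase uses the resulting gradient. Complex I takes electrons from NADH, and its peripheral arm reaches into the matrix while its membrane arm pumps protons. Complex IV, cytochrome c oxidase, hands the electrons to oxygen. Both complexes join subunits encoded in the mitochondrial genome with many encoded in the nucleus, and neurons depend heavily on their output. The values here are RNA levels and say nothing of protein or of enzyme activity.

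The 8 libraries held between 18014090 and 24902251 reads counted on genes, with no overlap between the groups and a median of 23540597 in wild-type and 19655448 in sponge-29. Levels are therefore given as CPM, that is, counts relative to the library total adjusted by TMM factors, for the same gene between fish, and as RPKM, which also divides by gene length, between genes. Of the 23546 genes, 19536 had enough counts to be tested with edgeR's quasi-likelihood test, and all 9 subunit genes were among them. At a Benjamini-Hochberg adjusted p below 0.05, 6.15% of the tested genes were called higher and 5.84% lower in sponge-29. Whole brain was sequenced, so for any gene fewer cells of a type and less RNA per cell cannot be told apart. The study calls the fish of a group biological replicates.

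In complex I, ndufs3 (Nfu_g_1_022080) encodes a core subunit of the peripheral arm. Its normalised counts were 71.6, 64.1, 70.2 and 67.4 CPM in wild-type fish 1 to 4 and 81.9, 94.4, 76.2 and 101.5 CPM in sponge-29 fish 1 to 4. The groups did not overlap, and sponge-29 fish 3 lay nearest to the wild-type range. The means of 68.3 ± 3.31 and 88.5 ± 11.5 CPM (SD, n = 4) correspond to a log2 fold change of 0.37 with a standard error of 0.09.

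The gene ndufv3 (Nfu_g_1_005869) encodes a small accessory subunit beside the flavoprotein that binds NADH. It was measured at 21.3, 18.8, 21.5 and 19.8 CPM in wild-type fish 1 to 4 and at 24.15, 31.2, 25.4 and 32.2 CPM in sponge-29 fish 1 to 4. Here too the sponge-29 fish fell into a lower pair, fish 1 and 3, and a higher pair, fish 2 and 4, all above wild-type. The means of 20.4 ± 1.27 and 28.2 ± 4.06 CPM (SD, n = 4) differed by 0.47 on the log2 scale (standard error 0.11), the largest difference within complex I.

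Another accessory subunit of the peripheral arm, with the LYR motif found in several small mitochondrial proteins, is encoded by ndufa6 (Nfu_g_1_019793). Wild-type fish 1 to 4 had 33.4, 33.8, 38.1 and 35.6 CPM and sponge-29 fish 1 to 4 had 42.3, 51.2, 44.9 and 51.8 CPM. No sponge-29 fish reached down to the highest wild-type fish, fish 3. The log2 fold change was 0.43 (standard error 0.09), or 34.9% more normalised counts.

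The membrane arm was represented by ndufb4 (Nfu_g_1_011244) and ndufb9 (Nfu_g_1_010097), both accessory subunits. For ndufb4 the values were 44.1, 36.05, 40.0 and 38.5 CPM in wild-type fish 1 to 4 and 50.4, 58.4, 46.1 and 58.45 CPM in sponge-29 fish 1 to 4. Its groups lay close together at the edge, since wild-type fish 1 at 44.1 CPM was only slightly below sponge-29 fish 3 at 46.1 CPM. For ndufb9, a second LYR-motif subunit, wild-type fish 1 to 4 had 93.1, 82.2, 91.4 and 95.05 CPM, and sponge-29 fish 1 to 4 had 107, 121, 106 and 134 CPM. The log2 fold changes were 0.43 (standard error 0.10) for ndufb4 and 0.37 (standard error 0.09) for ndufb9, so the difference between these 2 genes was smaller than the standard error of either.

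In complex IV, ndufa4 (Nfu_g_1_007565) carries the name of a complex I gene, but in mammals its protein was found to belong to cytochrome c oxidase, and it is counted with complex IV here. Wild-type fish 1 to 4 had 187, 190.0, 177 and 162 CPM. Sponge-29 fish 1 to 4 had 236, 274.5, 218 and 276 CPM. The lowest sponge-29 fish, fish 3, was thus above the highest wild-type fish, fish 2. The means of 179 ± 12.4 and 251 ± 28.85 CPM (SD, n = 4) differed by 0.49 on the log2 scale (standard error 0.09).

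The regulatory subunit encoded by cox4i1 (Nfu_g_1_003907) had the most counts of the 9 genes and the smallest relative difference. Its normalised counts were 319, 263, 331 and 304 CPM in wild-type fish 1 to 4 and 358, 420.2, 350.1 and 414 CPM in sponge-29 fish 1 to 4. Wild-type fish 2 was well below the other wild-type fish, and wild-type fish 3 came close to sponge-29 fish 3. The means of 304 ± 29.7 and 386 ± 36.5 CPM (SD, n = 4) were 0.34 apart on the log2 scale, with a standard error of 0.09.

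A pair of genes encodes forms of the subunit 6B, which sits on the intermembrane-space side of complex IV. For cox6b1 (Nfu_g_1_022815), the form found in most mammalian tissues, wild-type fish 1 to 4 had 41.8, 41.2, 44.6 and 46.8 CPM and sponge-29 fish 1 to 4 had 53.7, 67.7, 63.0 and 63.6 CPM. This was the highest log2 fold change of the 9 genes, 0.51 (standard error 0.08), with means of 43.6 ± 2.59 and 62.0 ± 5.90 CPM (SD, n = 4). For cox6b2 (Nfu_g_1_018035), known in mammals as the testis form, wild-type fish 1 to 4 had 46.02, 45.7, 46.3 and 39.5 CPM and sponge-29 fish 1 to 4 had 59.7, 55.1, 50.1 and 64.5 CPM. In wild-type, 3 fish were nearly alike and fish 4 was lower. The log2 fold change of cox6b2 was 0.37 (standard error 0.09). In the killifish brain, cox6b2 was thus counted at a level like that of cox6b1, although reads that the paralogs may share could have been divided between them in counting.

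**Figure D1:**
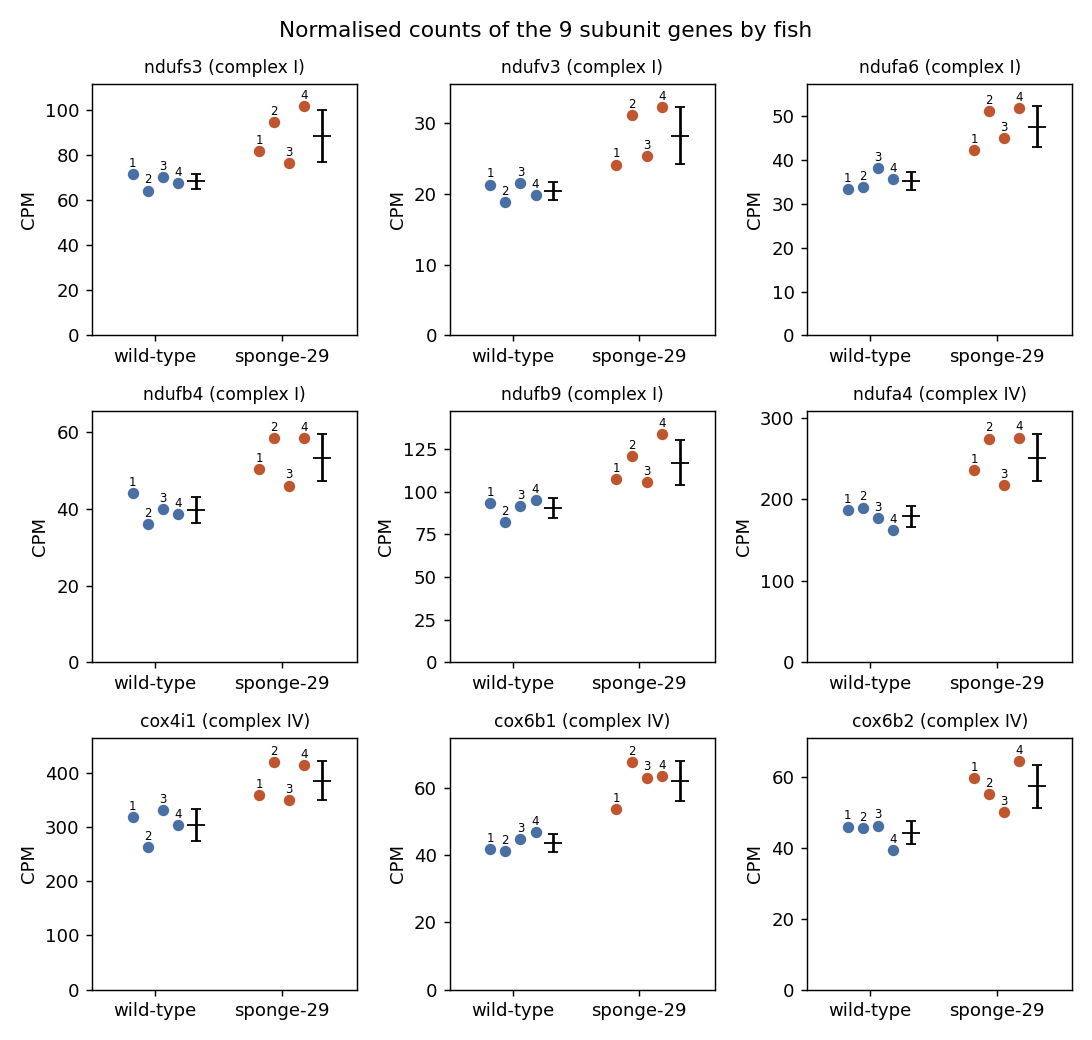
Normalised counts (CPM, linear axis from 0) of the 9 subunit genes, one point per fish with its replicate number, and mean with SD over 4 fish beside each group. All sponge-29 points lie above all wild-type points, and sponge-29 fish 2 and 4 are the highest for 8 genes, with cox6b2 as the exception.

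Seen together, the 9 genes differed between the groups by a narrow range of log2 fold changes, from 0.34 in cox4i1 to 0.51 in cox6b1, with standard errors from 0.08 to 0.11 and a median of 0.43, against a median of -0.01 over all genes tested. The medians of the complexes were alike, 0.43 for complex I and 0.43 for complex IV. All 9 were called higher in edgeR's quasi-likelihood test (background 6.15% of genes), and for all 9 the normalised counts of the groups did not overlap (background 11.4%). Both counts follow from how the genes were chosen, and nothing is read from them. Calls were lost in most fits that left out 1 fish, and the background was lower in each of them. Fewer fish enter each such fit, and the cause of the lost calls was not tested. Without wild-type fish 4 or without sponge-29 fish 2 only cox6b1 of the 9 was called, against backgrounds of 1.11% and 1.21%. Without wild-type fish 1, 2 and 3 in turn, 4, 4 and 3 genes were called (backgrounds 2.86%, 5.52% and 2.31%). Without sponge-29 fish 1, 3 and 4 in turn, 6, 9 and 3 were called (backgrounds 3.46%, 5.04% and 2.55%). With an adjusted p below 0.01, 0 of the 9 were called, and 16 genes of the whole table were called in either direction. Every log2 fold change stayed between 0.28 and 0.57 whichever fish was left out.

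The difference lay in the counts relative to depth. In the counts as deposited, none of the 9 genes separated the groups (background 0.973%), and the mean count of sponge-29 was from 1.04 to 1.16 times that of wild-type. For ndufv3 the deposited counts were 470, 452, 540 and 465 in wild-type fish 1 to 4 and 498, 606, 502 and 568 in sponge-29 fish 1 to 4. For cox4i1 they were 7033, 6312, 8311 and 7116 in wild-type and 7389, 8173, 6926 and 7291 in sponge-29, so that wild-type fish 3 had the highest count of all. The median total count was 0.26 higher on the log2 scale in wild-type than in sponge-29, against log2 fold changes of 0.34 to 0.51 in the 9 genes after scaling to depth. When every library was thinned to the smallest total, all 9 genes were again called higher in the same edgeR test (background 5.96%). Thinning evens out the totals as scaling to depth does, and the genes were chosen as higher in this comparison, so nothing is read from these calls.

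Gene length moved with the comparison as well. The subunit genes are short, with a median length of 510 bases against 2654 for all genes. Over all tested genes the median log2 fold change went from 0.10 in genes under 600 bases to -0.12 in genes of 4800 bases or more, and the share called lower went from 1.21% to 14.04%. The subunit genes lay above the median of genes of like length. Within a factor of 1.5 of the length of each, the median log2 fold change was between 0.03 and 0.12. Between 7.19% (ndufa4) and 19.0% (cox4i1) of those genes had a larger value than the subunit gene. That the subunit genes lie above genes of like length follows from their choice as higher in sponge-29, and nothing is read from it. With the length trend of each library removed, the median of the 9 genes was 0.37, from 0.29 in cox4i1 to 0.47 in ndufa4. In that fit 6 were called higher (background 4.98%) and ndufs3, cox4i1 and cox6b2 were not.

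**Figure D2:**
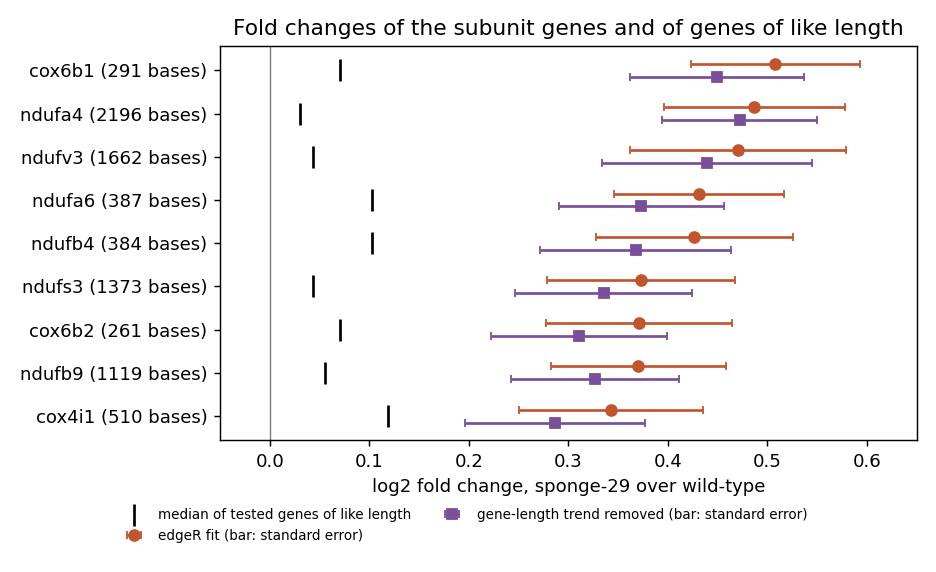
Log2 fold change of sponge-29 over wild-type for each subunit gene, with its length in bases, in edgeR's fit (circles) and with the length trend of each library removed (squares), bars showing 1 standard error; the black ticks are medians of tested genes of like length. Circles lie between 0.34 and 0.51, squares between 0.29 and 0.47 and ticks between 0.03 and 0.12.

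Levels per gene length, which played no part in the choice of the genes, spanned a wide range. The highest level was that of cox4i1, with a median of 671 RPKM over the 8 fish (range 523.5 to 819), above 99.6% of the genes tested. It was followed by cox6b2 with 186 RPKM (range 151 to 242) and cox6b1 with 171 RPKM (range 144 to 231). All 3 genes with the highest levels per gene length were thus of complex IV. That ranking depends on the length used for each gene, and cox6b1 and cox6b2 are the shortest of the 9 genes. In CPM, which does not divide by length, cox4i1 was again the highest. The wild-type means of ndufa4 (179 CPM), ndufb9 (90.42 CPM) and ndufs3 (68.3 CPM) were above those of cox6b1 (43.6 CPM) and cox6b2 (44.35 CPM). The levels of ndufb4 (118.5 RPKM), ndufa6 (103 RPKM), ndufa4 (93.6 RPKM) and ndufb9 (89.4 RPKM) were close to each other. The core subunit gene ndufs3 had 54.4 RPKM (range 47.5 to 72.3). The lowest was ndufv3 with 13.6 RPKM (range 11.5 to 19.0), above 71.1% of the genes tested, whereas the other 8 were above at least 93.6%.

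Each gene was compared within fish with the next in the order of mean level, in 8 comparisons. The test was an exact two-sided sign-flip permutation of the log2 ratios over the 8 fish. The order came from these same fish, and the length used for a gene is the same in each. A p here thus does not support the order. It is smallest whenever all 8 fish share the direction of a step, whatever the spread of its size. Where fish differ in direction, the sizes of their log2 ratios count as well. The p thus describes only how consistent a step was between fish. For 6 of the 8 comparisons the upper gene was higher in 8 of 8 fish (exact permutation p = 0.00781, the smallest that 8 fish allow, adjusted p = 0.0104). The largest steps were from ndufs3 to ndufv3, 3.93-fold, and from cox4i1 to cox6b2, 3.47-fold. The ratio of ndufb9 to ndufs3 was the most constant, 1.62 in the mean with an SD of 0.05 on the log2 scale. Cox6b2 was higher than cox6b1 in 5 of 8 fish, by 1.081-fold in the mean (exact permutation p = 0.180, adjusted p = 0.180). Likewise ndufa4 exceeded ndufb9 in 6 of 8 fish, by 1.05-fold (exact permutation p = 0.180, adjusted p = 0.180). The mean log2 ratio was 0.11 (SD 0.21) for cox6b2 over cox6b1 and 0.07 (SD 0.14) for ndufa4 over ndufb9. A p of this size from 8 fish does not show that the levels are equal. The lengths of 8 of the 9 genes, and of 52.9% of all genes, are multiples of 3. How much UTR each gene model holds was not tested, and a missing UTR would raise an RPKM value.

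**Figure D3:**
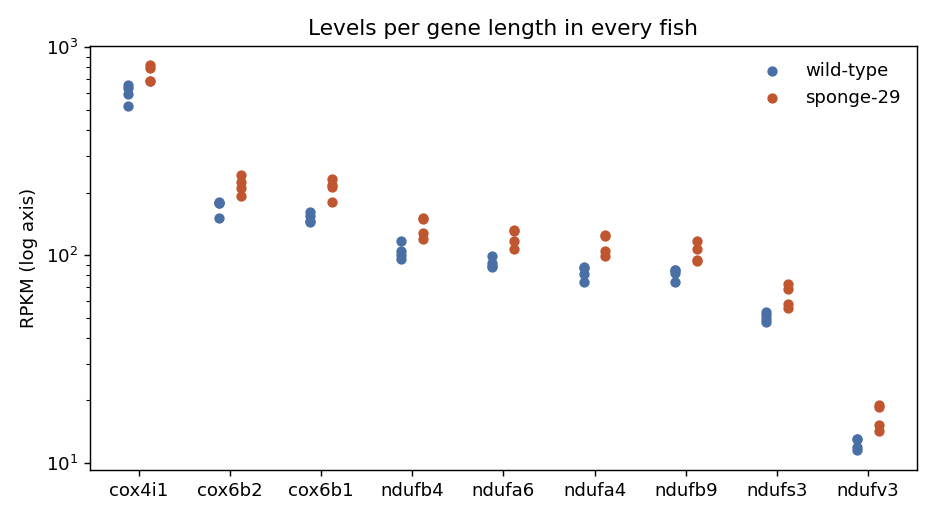
RPKM of each subunit gene (log axis) in 4 wild-type fish and 4 sponge-29 fish, ordered by median level. The medians fall from 671 RPKM in cox4i1 to 13.6 RPKM in ndufv3, and the ranges of neighbours overlap except between cox4i1 and cox6b2, between ndufb9 and ndufs3 and between ndufs3 and ndufv3.

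Which form of subunit 6B had the higher RPKM differed between fish. The ratio of cox6b1 to cox6b2 in RPKM was 0.814, 0.809, 0.865 and 1.06 in wild-type fish 1 to 4 and 0.807, 1.10, 1.13 and 0.884 in sponge-29 fish 1 to 4. Thus cox6b1 was the higher form in 1 wild-type fish and in 2 sponge-29 fish. That wild-type fish is fish 4, in which cox6b2 was low, at 39.5 CPM against 45.7 to 46.3 CPM in the other wild-type fish. With ratios this close to 1, the higher form also depends on the gene lengths used and on how any shared reads were divided, which was not tested. The ratios of the groups overlapped, and 2 sponge-29 fish lay above the highest wild-type fish.

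With each fish centred on the mean of its group, so that the difference between groups plays no part, the subunit genes mostly moved together over the 8 fish pooled. After the mean of its group was subtracted from each log2 CPM value, the correlation over the 8 fish was positive for 35 of the 36 pairs of genes, with a median Pearson's r of 0.70. The highest r was that of ndufs3 with ndufb4, 0.93. The only negative r, -0.41, was that of the 6B forms cox6b1 and cox6b2. Against the mean of the other 8 genes, r was 0.97 for ndufs3, 0.97 for ndufv3, 0.88 for ndufb9, 0.87 for ndufb4 and 0.85 for cox4i1, while ndufa4 had 0.67, cox6b1 0.43 and cox6b2 0.38. For the remaining complex I gene, ndufa6, r was 0.80. These correlations describe 8 fish, in each of which the genes share a library and its depth, and no p is attached to them. With the length trend removed the median r was 0.61, with 34 of 36 pairs positive.

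The pattern is plain in the sponge-29 fish and weaker in wild-type. In wild-type fish 1 to 4, 7, 2, 8 and 4 of the 9 genes were above the mean of the group. The mean deviation of the 9 genes was 0.04, -0.08, 0.05 and -0.02 in wild-type fish 1 to 4. In sponge-29 fish 1 to 4 it was -0.11, 0.10, -0.14 and 0.15. The pooled correlations thus rest more on sponge-29, and correlations within each group alone were not computed. In sponge-29 fish 4 all 9 genes were above the mean of the group and in sponge-29 fish 2 it was 8 of 9, with cox6b2 as the exception. In sponge-29 fish 1 and 3 only 1 of 9 was, cox6b2 in fish 1 and cox6b1 in fish 3. Summed over the 9 genes, sponge-29 fish 1 to 4 had 1014, 1174, 979 and 1195 CPM, and wild-type fish 1 to 4 had 857, 775, 860.3 and 808.5 CPM. The SD of log2 CPM was larger in sponge-29 than in wild-type for 8 of the 9 genes, all but cox4i1, for instance 0.19 against 0.07 in ndufs3. Over all genes tested it was larger in sponge-29 for 53.1%, and since the 9 genes vary together these 8 are not separate observations.

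**Figure D4:**
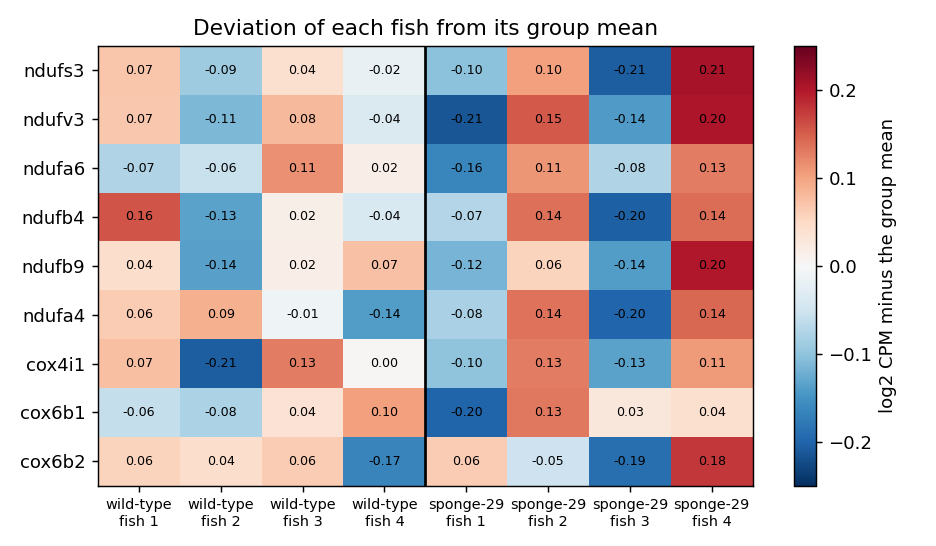
Log2 CPM of each subunit gene in each fish minus the mean of its group, in rows by gene and columns by fish, red above and blue below the mean. Sponge-29 fish 2 and 4 are red in 8 and 9 rows, sponge-29 fish 1 and 3 are each red in 1 row, and wild-type fish 2 is blue in 7 rows.

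In every fish, short genes as a whole lay on the same side of the mean of all 8 fish as the subunit genes, and long genes on the other side. Both did so at a smaller scale. These values hold the difference between groups by which the subunit genes were chosen, so nothing is read from the shared side. Centred on the group mean, wild-type fish 4 had -0.0223 for the subunit genes and 0.0002 for short genes. In wild-type fish 2 the subunit genes had -0.0754 and the long genes -0.0032. In every other case the sides were kept. Relative to the mean of all 8 fish, the mean log2 CPM of the 9 genes was 0.10, 0.31, 0.07 and 0.36 in sponge-29 fish 1 to 4. The median of the other genes under 600 bases was 0.04, 0.09, 0.01 and 0.12 in the same fish. Genes of 4800 bases or more ran the other way, with -0.02, -0.09, -0.01 and -0.11. In wild-type fish 1 to 4 the subunit genes had -0.16, -0.28, -0.15 and -0.23, the short genes -0.03, -0.06, -0.03 and -0.05, and the long genes 0.04, 0.06, 0.04 and 0.07. The ranking of the sponge-29 fish was the same by all 3 measures, read downward for the long genes, and the part of length-related differences between libraries in the shared pattern was not tested beyond the fit that removes the trend.

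**Figure D5:**
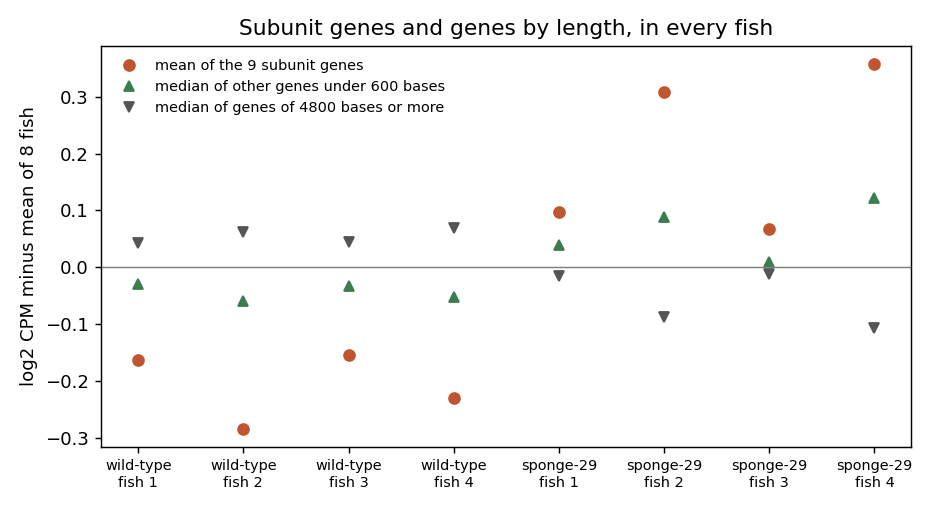
Mean log2 CPM of the 9 subunit genes (circles) and medians of other genes under 600 bases (upward triangles) and of genes of 4800 bases or more (downward triangles), each relative to its mean over the 8 fish. Circles range from -0.28 to 0.36, and sponge-29 fish 2 and 4 stand out in all 3 series.

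By the same centred values, the 10 genes with a symbol whose pattern over the 8 fish was most like the mean of the 9 subunit genes were sod1, anapc16, hsd17b12b, acsl1, PDRG1, ldlrap1b, fam177a1, cops5, rabl2 and nme2b.2, with r from 0.96 down to 0.91. The closest, sod1, encodes the superoxide dismutase of the cytosol that uses copper and zinc, and its log2 fold change was 0.36 (standard error 0.08). The second pair, at 0.95 each, were anapc16, a subunit of the anaphase-promoting complex, and hsd17b12b, an enzyme of lipid metabolism. High values of r were common at this number of fish, since 5% of all tested genes had r above 0.79 and 5% had r below -0.79, around a median of -0.01.

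Other mitochondrial genes were followed by lists of the genes that the study's lists of changed genes name. As those lists were mostly chosen on these same libraries, the counts carry no independent evidence of a direction. Over all lists, which also hold the V-type proton pump and glycolysis, 35 of 46 identifiers were called higher and 4 lower in edgeR's quasi-likelihood test (background 6.15% and 5.84%), with a median log2 fold change of 0.40 against -0.01 for all genes. The share of all genes called higher dropped together with the count of list genes when a fish was left out. Without wild-type fish 4 or sponge-29 fish 2, 5 of the 46 were called higher (backgrounds 1.11% and 1.21%). Without wild-type fish 1 or 3 it was 18 each (backgrounds 2.86% and 2.31%), and without sponge-29 fish 4 it was 17 (background 2.55%). With the length trend removed, 25 were called higher (background 4.98%).

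Among the genes that build the chain, 6 of 8 identifiers were called higher and 1 lower (median log2 fold change 0.46). Cox15, an enzyme of heme A synthesis for complex IV, was higher by 0.44 on the log2 scale (standard error 0.07). Nubpl, which delivers iron-sulfur clusters to complex I, was higher by 0.67 (standard error 0.12), and both identifiers named adck3, a gene of coenzyme Q synthesis, were higher by 0.56 and 0.57. In the opposite direction, cox17, the copper chaperone of complex IV, fell from 30.4 to 20.4 CPM, which is -0.57 on the log2 scale (standard error 0.09). It was the only assembly gene of these that was called lower. Of the iron-sulfur cluster list, 4 of 4 genes were called higher (median 0.44), among them nfs1, the cysteine desulfurase that supplies the sulfur, and isca1. With the length trend removed it was 2 of 4, and isca1 and ciapin1 were not called. Complex I carries several such clusters.

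Of the TCA cycle and pyruvate entry list, 5 of 5 were called higher (median log2 fold change 0.41), among them idh3g, a subunit of the NAD-linked isocitrate dehydrogenase, at 0.34. MPC1, which carries pyruvate into mitochondria, was higher by 0.41, and pdk1, a kinase that inhibits pyruvate dehydrogenase, by 0.42. In the mitochondrial ribosome and RNA list, 5 of 5 were called higher (median 0.49). For the removal of peroxide and superoxide, prdx3, prdx5 and sod1 were called higher and CCS, the copper chaperone of sod1, had 0.42 (standard error 0.12) and was not. After removal of the length trend, CCS was called and prdx3 was not. Of the import, channel and membrane list, 7 of 10 identifiers were called higher and slc25a29, a carrier of basic amino acids, was called lower at -0.82 (standard error 0.10). With the length trend removed, 4 of these 10 were called in either direction. The V-type proton pump, which acidifies lysosomes and synaptic vesicles, had 3 of 3 genes called higher (median 0.37), and 2 of 3 with the length trend removed.

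Regulators and glycolysis were not of the same kind. Of the 3 regulators, sirt3, a mitochondrial deacetylase, was called higher at 0.46 (standard error 0.11), though not with the length trend removed, while pprc1, a coactivator of mitochondrial genes related to PGC-1, had -0.66 (standard error 0.19) and esrrga, a nuclear receptor of the estrogen-related family, had -0.52 (standard error 0.19), and neither was called. In glycolysis, hk1 (hexokinase, -0.68) and tpi1a (triose phosphate isomerase, -0.705) were called lower, pgam1a (phosphoglycerate mutase, 0.34) was called higher, and hk2 (-0.45) was not called. With the length trend removed the call of pgam1a was lost, while those of hk1 (-0.60) and tpi1a (-0.63) were kept. The genes called lower in this list are long, with 6377 bases in hk1 and 6052 in tpi1a, and pgam1a is shorter, with 1690 bases.

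Some markers of cell types differed between the groups too, and their part in the subunit values was not tested. The background for the calls below is 6.15% of genes called higher and 5.84% called lower. The summed levels of the astrocyte and radial glia, the microglia and macrophage, and the muscle markers overlapped between the groups. Of 7 neuronal markers 5 were called higher, and their summed level was 1304 to 1683 CPM in wild-type and 1786 to 1926 CPM in sponge-29. Nefl (0.68) and camk2a (-0.42) were not called. The only oligodendrocyte marker, sox10, was called higher (32.8 to 42.03 against 45.25 to 57.8 CPM). Of the astrocyte and radial glia markers 2 of 3 were called higher (981 to 1252 against 961 to 1235 CPM summed), and bcan (-0.51, standard error 0.15) was not called. Of the microglia and macrophage markers 2 of 3 were called higher (37.0 to 119 against 44.8 to 58.05 CPM), and ITGAM (-1.84, standard error 0.77) was not called. All 4 markers of dividing cells were called lower (91.5 to 133 against 30.3 to 65.3 CPM), as were both of the vessel wall (82.9 to 117 against 57.7 to 74.8 CPM), of which 1 was called with the length trend removed. Of 3 muscle markers casq2 was called higher and neb lower (83.6 to 91.7 against 72.9 to 98.8 CPM). No marker was at 0, and most of them were also chosen on these libraries. The synaptic gene snap25a, among the neuronal markers called higher, had a mean of 126 CPM in wild-type and 176 CPM in sponge-29. No other tissue was compared, so the tissue label was not tested.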

How the data were processed

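Libraries of brain RNA from 4 wild-type and 4 sponge-29 fish were made with Illumina's TruSeq RNA kit v2. The authors mapped single reads with TopHat2 2.0.6 and counted them on genes with featureCounts 1.4.3-p1, after bcl2fastq 1.8.4 (submitters' processing notes), and deposited counts per gene without normalization and, for the same genes, RPKM values scaled to gene length and library size. Whether counting used strand is not given in the sources used here. Dividing the counts by the RPKM values gave the length of each gene.

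Counts were tested in R 4.3.3 with edgeR 4.0.16: genes kept by filterByExpr (minimum count 10), TMM factors from 0.979 to 1.02, quasi-likelihood F-test of sponge-29 against wild-type over all 8 fish with no covariate, Benjamini-Hochberg adjustment over 19536 genes, threshold 0.05. The biological coefficient of variation was 22.8%. Log2 CPM used a prior count of 2. The length trend was a natural spline with 4 degrees of freedom per library, entered as an offset. The fits were also run on simulated counts, with larger changes than those of the subunit genes and no length trend. That run does not cover changes of this size or the removal of a length trend. Fish were numbered in accession order. At 18014090 to 24902251 counts per library, each subunit gene had at least 452 counts in every fish. The part of counting in the spread between fish was not tested.

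As alternatives, the comparison was rerun with DESeq2 1.42.0, the likelihood ratio test of edgeR, limma 3.58.1 (voom, and log2(RPKM + 1) and log2(RPKM + 0.1)), other scaling factors, no filter, thinning to 18014090 counts, an adjusted p of 0.01, and leaving out each fish. Permutation tests went through all sign flips directly, and figures used matplotlib 3.10.9.

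The members and all lists were chosen with earlier results of these data known. The text names the 9 members, genes of the lists, and the 10 genes with a symbol whose centred values correlate best with the members' mean. Symbols, which follow the study's lists of changed genes, were paired with 1418 identifiers; 0 identifiers matched the RefSeq gene table, so sequences, promoters and positions were not analysed here. The results for 2 genes of the lists are not reported here. The columns of the study's own comparisons were not used.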

Additional observations from a re-analysis of the deposited data

Results flagged for a closer look

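Among the 18 sets of 4 fish (9 subunit genes in both groups, normalised counts), 1 held a fish far from the other 3: cox6b2 in wild-type, where fish 4 had 39.5 CPM and the other 3 lay between 45.7 and 46.3 CPM. Its gap to the nearest fish, as a share of the range, was above Dixon's 95% critical value. Chance flags about 1 in 20 sets.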

How the results depend on the processing

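The log2 fold change of each subunit gene was positive under every alternative run, 171 values from 0.28 to 0.57, and their median lay between 0.38 and 0.45 when each fish was left out in turn. Calls moved more than values. Of the 171, 47 lost the call, 41 of them among the 72 fits that left out 1 fish and 6 among 99 others: 3 with the length trend removed, and cox4i1 once each without scaling factors and on log2(RPKM + 1) and log2(RPKM + 0.1). Subunit genes called higher numbered 9 (background 6.15%), but 0 at an adjusted p below 0.01, and 1 to 9 with 1 fish left out (backgrounds 1.11% to 5.52%). Genes called in all numbered 2341, but 3784 with DESeq2, 1529 with the length trend removed, 16 at an adjusted p below 0.01, and 427 to 2125 with 1 fish left out. Genes of the mitochondrial and energy lists called higher numbered 35 (background 6.15%), 25 with the length trend removed (background 4.98%), and 5 to 33 with 1 fish left out (backgrounds 1.11% to 5.52%). Of the 8 comparisons of neighbours in level, 6 passed the sign-flip test at an adjusted p below 0.05, and 6 to 7 with 1 fish left out. The median correlation within groups was 0.61 with the length trend removed and 0.63 to 0.76 with 1 fish left out. The cause of these shifts was not tested, except that fewer fish enter each fit that leaves one out. No paired analysis was possible because the groups are different fish and the labels pair no wild-type fish with a sponge-29 fish.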
